A study of Mus musculus with 9 samples.

Results

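The open chromatin described here is the distal intergenic part of the brain endothelial accessibility map, namely every peak whose deposited annotation began with Intergenic and placed it 100 kb or more from the transcription start site (TSS) of its nearest gene. These distal peaks numbered 24348 of 253457 peaks in all, or 9.61%, and made up 28.1% of the intergenic peaks of the 9 libraries. Accessible DNA was cut by Tn5 transposase (the Omni-ATAC-seq protocol) in nuclei of flow-sorted mouse brain endothelial cells, and each library came with its own peak list. The groups were young WT Cre (n = 2), young EC-K4KO (n = 3), old WT Cre (n = 2) and old EC-K4KO (n = 2), with the age given in the labels only as young or old. EC-K4KO mice carried floxed Klf4 and a tamoxifen-inducible Cre under the Cdh5 (VE-cadherin) promoter, so that Klf4 was lost from endothelial cells after induction in adult life. WT Cre mice carried the same Cre with Klf4 intact, so both genotypes shared the driver. Peak lists hold no transcript level, so the deletion itself could not be checked from them. The comparisons addressed whether endothelial Klf4 loss and age moved distal accessibility. Nothing in the labels said that libraries came from separate animals, so each p measured the spread between these libraries.

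Chromatin far from promoters is opened mainly at enhancers, where transcription factors displace nucleosomes and from which they act on genes over long genomic distances. Large intervals without genes often flank developmental regulators and hold clusters of such enhancers. In endothelial cells, ETS factors such as Erg and Fli1, together with SOX, FOX, AP-1 and KLF factors, are known to occupy enhancers, and CTCF marks the bases of chromatin loops.

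The sequences below show the DNA of distal regions named in the results. Each is the 300 bp around the centre of a region, read from the GRCm38 reference on the + strand and written 5′ to 3′. Capitals mark matches, on either strand, to the motifs searched: ETS AGGAAG, AP-1 TGANTCA, KLF GGGNGTGG, SOX ATTGTT, FOX TGTTTAC and the CTCF core. The first and second lie upstream of Klf4, these and the next 4 were open in all 9 libraries, and the last was found in every library except the young WT Cre pair.
Klf4 near region, chr4:55651215-55651514, + strand: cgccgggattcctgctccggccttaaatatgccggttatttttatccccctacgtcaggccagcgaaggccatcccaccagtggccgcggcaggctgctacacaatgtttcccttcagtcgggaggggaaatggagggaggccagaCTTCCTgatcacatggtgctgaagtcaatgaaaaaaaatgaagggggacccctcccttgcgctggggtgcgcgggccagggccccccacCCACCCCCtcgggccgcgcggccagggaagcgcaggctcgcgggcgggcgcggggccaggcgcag
Klf4 far region, chr4:56113603-56113902, + strand: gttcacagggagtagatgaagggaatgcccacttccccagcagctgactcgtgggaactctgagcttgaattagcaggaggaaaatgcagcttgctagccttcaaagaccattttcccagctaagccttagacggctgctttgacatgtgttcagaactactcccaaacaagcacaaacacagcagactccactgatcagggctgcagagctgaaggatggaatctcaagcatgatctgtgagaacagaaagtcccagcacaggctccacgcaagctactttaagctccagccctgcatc
Arl4a region, chr12:39920537-39920836, + strand: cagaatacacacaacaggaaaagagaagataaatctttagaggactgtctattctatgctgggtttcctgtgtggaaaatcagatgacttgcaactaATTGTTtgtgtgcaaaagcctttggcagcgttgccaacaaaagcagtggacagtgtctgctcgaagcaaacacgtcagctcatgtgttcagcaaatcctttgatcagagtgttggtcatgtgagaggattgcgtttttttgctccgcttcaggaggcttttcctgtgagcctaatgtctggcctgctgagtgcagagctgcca
N6amt1 region, chr16:87128293-87128592, + strand: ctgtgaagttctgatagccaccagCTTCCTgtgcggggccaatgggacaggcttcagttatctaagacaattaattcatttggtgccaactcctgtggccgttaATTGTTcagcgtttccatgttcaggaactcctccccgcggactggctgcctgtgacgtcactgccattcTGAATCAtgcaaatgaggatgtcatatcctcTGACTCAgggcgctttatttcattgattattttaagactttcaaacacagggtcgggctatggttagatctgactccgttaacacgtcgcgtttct
Fat4 region, chr3:39220292-39220591, + strand: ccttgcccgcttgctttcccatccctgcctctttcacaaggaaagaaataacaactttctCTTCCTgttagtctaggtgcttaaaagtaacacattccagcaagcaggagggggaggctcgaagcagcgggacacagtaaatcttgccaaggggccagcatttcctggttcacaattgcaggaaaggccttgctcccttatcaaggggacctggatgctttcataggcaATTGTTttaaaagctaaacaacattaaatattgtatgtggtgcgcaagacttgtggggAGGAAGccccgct
Dusp6 region, chr10:99409707-99410006, + strand: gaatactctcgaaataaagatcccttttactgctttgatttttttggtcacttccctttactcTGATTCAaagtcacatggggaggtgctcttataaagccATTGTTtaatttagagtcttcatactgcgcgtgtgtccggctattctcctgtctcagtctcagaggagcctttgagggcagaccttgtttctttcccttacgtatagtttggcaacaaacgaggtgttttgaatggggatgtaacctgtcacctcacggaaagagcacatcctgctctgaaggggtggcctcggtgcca
Trim24 region, chr6:37732416-37732715, + strand: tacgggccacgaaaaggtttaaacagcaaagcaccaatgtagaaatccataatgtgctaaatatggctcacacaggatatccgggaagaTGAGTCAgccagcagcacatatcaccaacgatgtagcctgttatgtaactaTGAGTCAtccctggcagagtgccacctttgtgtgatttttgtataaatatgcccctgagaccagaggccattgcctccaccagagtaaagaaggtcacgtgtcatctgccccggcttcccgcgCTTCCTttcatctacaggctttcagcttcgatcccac
The near Klf4 region held 1 ETS and 1 KLF match, and the N6amt1 region held 1 ETS, 2 AP-1 and 1 SOX match. The Trim24 region held 2 AP-1 matches and 1 ETS match, and the Fat4 region 2 ETS matches and 1 SOX match. The far Klf4 region held none of the 6 motifs. A match is a description of letters only.

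The libraries differed widely in list length, from 6157 peaks in young WT Cre 1 and 9598 in young WT Cre 2 to 45026 in old EC-K4KO 1. Read depth was not given with the lists, so the depth behind each peak was unknown. All 9 libraries had promoter peaks at Cldn5, the tight junction claudin of the barrier, and at Erg. Cdh5 had one in all but young EC-K4KO 3, and Pecam1 in all but young EC-K4KO 1 and the young WT Cre pair. Of 50 endothelial and barrier genes, 22 to 39 had a promoter peak in a library. Of 15 mural genes none had a promoter peak in the young libraries or old WT Cre 1, while old WT Cre 2 had 4, old EC-K4KO 1 had 7 and old EC-K4KO 2 had 4. Of 15 astrocyte genes 0 to 2 had one in the young and 4 to 5 in the old libraries. The astrocyte counts thus moved with age, as did the mural counts except in old WT Cre 1. Endothelial counts were 22 and 26 in young WT Cre, 30, 37 and 33 in young EC-K4KO, and 37 to 39 in the old libraries. The old lists were also the longest, and the part of markers and list length in the age differences below was not tested. The ranges were 0 to 3 of 15 oligodendrocyte genes, 0 to 2 of 15 neuron genes and 0 of 15 microglia genes. The pericyte marker Pdgfrb had a promoter peak in old EC-K4KO 1 alone. The neuronal markers Rbfox3 and Snap25, the astrocyte marker Aqp4, the microglial marker Cx3cr1 and the oligodendrocyte marker Mbp were without a promoter peak in every library.

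The listed distances held largely for coding genes and much less for other transcripts. The median listed distance was 217 kb (216936 bp) and the quartiles were 141585 and 401462 bp. Measured against every TSS of the GENCODE M21 basic set, which adds many noncoding RNAs and pseudogenes, the median distance fell to 37.7 kb and 20.5% of the members still lay 100 kb or more away. Against GENCODE protein-coding TSSs this share was 94.0%, and against curated RefSeq TSSs 86.2%. Of all members, 1336 (5.49%) lay within 1 kb of a GENCODE TSS. They are therefore called distal intergenic peaks, by their rule. The limit of 100 kb itself marked no step in strength: the 1913 peaks listed from 90 to 100 kb had a median place of 68.8% from the top of their lists, and the 1695 from 100 to 110 kb one of 69.0%.

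Young WT Cre had the fewest distal peaks, and one old WT Cre library the most. Their number was 221 and 550 in young WT Cre, 3151, 2529 and 2932 in young EC-K4KO, 6566 and 2432 in old WT Cre, and 3433 and 2534 in old EC-K4KO. Both young WT Cre libraries lay below all others, while the old groups overlapped each other and the young EC-K4KO range. As a share of each list, the distal peaks were 3.59% and 5.73% in young WT Cre, 13.2%, 9.99% and 10.5% in young EC-K4KO, 15% and 7.47% in old WT Cre, and 7.62% and 6.48% in old EC-K4KO. The share in young EC-K4KO lay above young WT Cre in every library, whereas in old mice both EC-K4KO values lay within or below the old WT Cre pair.

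No genotype or age difference in these values passed the test. The differences ran in opposite directions in the strata that each test averages, apart from age in number, where both were positive. In number, EC-K4KO minus WT Cre was 3.04 on the log2 scale in young and -0.44 in old mice, with an average of 1.30 (adjusted p = 0.375, exact permutation of genotype labels within age, two-sided). The interaction of genotype and age in number was -3.47 (unadjusted p = 0.05, adjusted p = 0.0833, exact permutation) and did not pass. In share, the genotype difference was 6.57 percentage points in young and -4.16 in old mice, with an average of 1.2 (adjusted p = 0.833, exact permutation). Old minus young in number was 3.52 on the log2 scale in WT Cre and 0.05 in EC-K4KO, with an average of 1.78 (adjusted p = 0.375, exact permutation). In share, old exceeded young by 6.55 percentage points in WT Cre, whereas in EC-K4KO the old libraries lay below the young ones without overlap, at -4.17 (average 1.19, adjusted p = 0.833, exact permutation). With 60 label arrangements the smallest p was 0.0167. Age also coincided with the library name prefix, so age and library series cannot be told apart.

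The counts ordered differently at a stricter threshold. Distal peaks passing q under 0.01 numbered 108 and 144 in young WT Cre, 416, 588 and 656 in young EC-K4KO, 1477 and 1219 in old WT Cre, and 2027 and 1809 in old EC-K4KO. At this threshold no 2 groups overlapped, and both the genotype and the age difference in number reached the smallest p the design allows (unadjusted p = 0.0167 each, exact permutation). The share of the list rose in the same order only in part, at 2.28% and 2.17%, 3.73%, 3.50% and 3.51%, 5.44% and 4.71%, and 5.42% and 5.19%. List length moved with these counts, from 4740 to 37390 peaks at q under 0.01, and its part in them was not tested.

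When every list was shortened to its 6157 strongest peaks, so that list length was equal, the picture changed. Distal peaks then numbered 221 and 125 in young WT Cre, 88, 80 and 71 in young EC-K4KO, 113 and 99 in old WT Cre, and 111 and 119 in old EC-K4KO. Young WT Cre was now the highest group and young EC-K4KO the lowest, with no overlap between them, and the old groups overlapped. EC-K4KO minus WT Cre was -1.52 percentage points in young and 0.15 in old mice, and their average of -0.68 did not pass the test (adjusted p = 0.375, exact permutation). For young WT Cre 1, the shortest list, these 6157 peaks were the whole list, its weakest peaks included. The average genotype difference shrank with shorter lists. It was -0.167 percentage points with the 3000 strongest peaks (unadjusted p = 0.0667, exact permutation) and -0.0167 with the 1000 strongest (unadjusted p = 0.933, exact permutation).

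**Figure D1:**
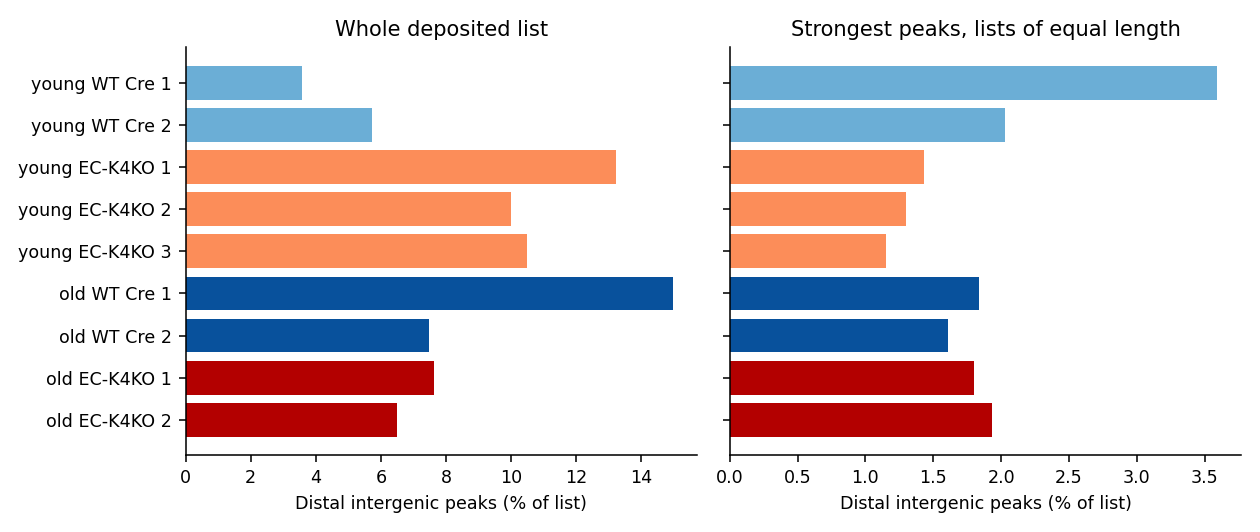
Distal intergenic peaks as a percentage of each library's list, 1 bar per library, for the whole deposited lists (left) and for the 6157 strongest peaks of each list (right, with its own axis). The young WT Cre bars are the shortest on the left, at 3.59% and 5.73%, and the longest on the right, at 3.59% and 2.03%.

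Distal peaks were narrow and weak in each library. Their median width was 259 and 259.5 bp in young WT Cre, 312, 251 and 264 bp in young EC-K4KO, 276 and 305.5 bp in old WT Cre, and 310 and 344 bp in old EC-K4KO. In every library the median of the other intergenic peaks was larger, between 306 and 385 bp. The difference averaged -49.2 ± 13.1 bp (SD, n = 9 libraries, adjusted p = 0.00488, exact sign-flip permutation test). Among the 6157 strongest peaks this difference was -3.06 bp and no longer passed (unadjusted p = 0.762, exact permutation). Old libraries had wider distal peaks than young ones within genotype by 41.4 bp (unadjusted p = 0.05, adjusted p = 0.375, exact permutation), which did not pass. Only 482 distal peaks (1.98%) reached 1 kb, and the widest single peak measured 2303 bp.

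The place of a peak in its library's own list, ranked by the deposited -log10 p with 0% at the top, gave the same order. The median place of distal peaks lay between 71.3% and 83.3% over the 9 libraries, against 54.6% to 65.2% for other intergenic peaks and 15.4% to 37.6% for promoter peaks. Distal peaks were placed lower in each library, by 18.3 ± 4.82 percentage points (SD, n = 9 libraries, adjusted p = 0.00488, exact sign-flip permutation). Their median fold enrichment ran from 2.81 in old WT Cre 1 to 4.29 in old EC-K4KO 2. Promoter peaks in the same libraries reached medians of 6.74 and 8.55. Between 0.698% and 2.71% of a library's distal peaks stood in the top 10% of its list.

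Strength fell with distance throughout the intergenic space, and the distal peaks continued that course. The median place was 52.7% for intergenic peaks under 10 kb from the TSS, 64.5% from 50 to 100 kb, 71.6% from 100 to 200 kb, 80.9% from 200 to 500 kb and 86.3% beyond 1000 kb. The share of peaks found in a single library rose along the same bins, from 18.5% to 33.8%, 45.2%, 67.3% and 85.3%. Of the 1018 peaks listed beyond 1000 kb, none stood in the top 10% of a list. The farthest, listed 2204912 bp upstream of Pcdh17, a protocadherin gene, was found in old WT Cre 1 alone with a fold of 2.79.

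Most distal peaks did not recur. Peaks sharing at least 1 bp were joined across libraries into 92495 merged regions, of which 17079 held a distal peak. Of these, 14492 (84.9%) came from 1 library, against 57.3% of merged regions of all classes, 59.5% of other intergenic regions and 7.74% of promoter regions. Distal regions found in all 9 libraries numbered 68 (0.398%), against 5.27% of merged regions of all classes and 31.5% of promoter regions. Within a library, 12.5% to 65.5% of distal peaks met a peak of another library of the same group, which was lower than for other intergenic peaks in each of the 9 libraries with a mean difference of -27.2 ± 5.70 percentage points (SD, adjusted p = 0.00488, exact sign-flip permutation). Among the 6157 strongest peaks the gap narrowed to -5.93 percentage points (unadjusted p = 0.13, exact permutation) and did not pass.

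A pair of libraries supplied a large part of the single finds. Old WT Cre 1 held 4694 single-library distal peaks and young EC-K4KO 1 held 2403, together 49.0% of all of them. In old WT Cre 1, 71.5% of the distal peaks were single finds, compared with 43.1% in its partner old WT Cre 2, and the lowest share was 29.3%, in old EC-K4KO 2. Without that pair, 80.7% of distal regions and 49.5% of other intergenic regions were still single-library. With only peaks at q under 0.01 these shares were 46.5% and 28.2%, and for lists of equal length 59.3% and 30.9%. The excess of single finds among distal regions was thus present in each of these settings, while its size depended on the threshold. In young EC-K4KO and old WT Cre 1, 44.4% to 56.2% of distal peaks had q above 0.05, against 2.05% to 20.0% in the other 5 libraries.

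**Figure D2:**
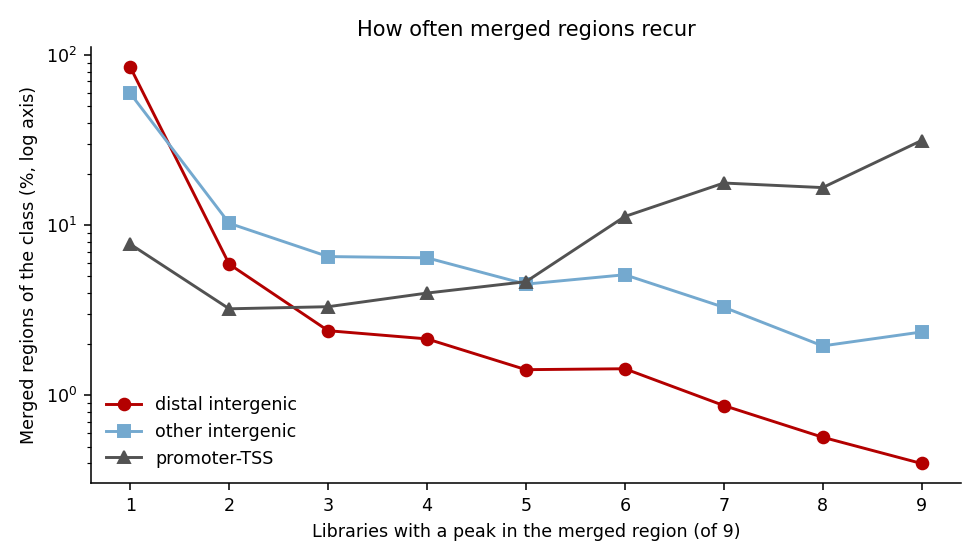
Merged regions of 3 classes by the number of libraries in which they were found, as a percentage of the class on a log axis. Distal intergenic regions fall from 84.9% in 1 library to 0.398% in 9, other intergenic regions from 59.5% to 2.36%, while promoter-TSS regions rise to 31.5% in 9 libraries.

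Recurrent distal regions also differed in sequence from those seen once. In a window of 300 bp at the region's centre, bases masked as repeats made up 37.5% in regions of 1 library, 20.8% in those of 2 to 4, 10.6% in those of 5 to 8 and 8.5% in those of all 9. All 2530454 windows that tile the distal space held 46.1% masked bases, so even the single finds were poorer in repeats than these windows. The windows were set by curated RefSeq genes and not by the deposited annotation. They took in 73.1 Mb of the Y and 56.7 Mb of the X chromosome, which held 2 and 83 distal regions. The authors' filter on mapping quality applied to the peaks but not to the windows. The part of these differences was not tested. GC content was 46.3%, 48.5%, 48.1% and 52.2% in the 4 classes and 39.1% in the tiled windows. These are counts over regions, without a test.

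The ETS and AP-1 shares rose at every step of recurrence. The last class held only 68 regions, so small differences at the last step rest on few regions for every motif. The ETS motif, the core letters bound by Erg and Fli1, stood in 32.9% of the windows of single finds, 42.9% of those in 2 to 4 libraries, 56.9% of those in 5 to 8 and 63.2% of those in all 9, and in 27.5% of tiled windows. The AP-1 motif, bound by Fos and Jun dimers, rose from 8.92% to 12.2%, 21.8% and 23.5%, with 8.92% in tiled windows. The SOX motif rose from 18.5% to 21.9% and 29.9% and stood at 27.9% in the last class, with 25.3% in tiled windows, so only the 2 most recurrent classes lay above the tiled windows. The FOX motif rose from 3.63% to 5.94% and 9.28% and stood at 8.82% in the last class, with 4.77% in tiled windows.

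KLF and CTCF behaved otherwise. The KLF motif, bound by Krüppel-like factors including Klf4, stood in 7.68%, 7.22%, 12.1% and 11.8% of windows over the 4 classes, and in 5.19% of tiled windows. Other intergenic regions held it more often in each class, up to 18.6% in those of all 9 libraries. The CTCF core reached 3.86% in regions of 2 to 4 libraries and 1.5% in those of 5 to 8, and was in none of the 68 regions of all 9, against 0.0686% of tiled windows.

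**Figure D3:**
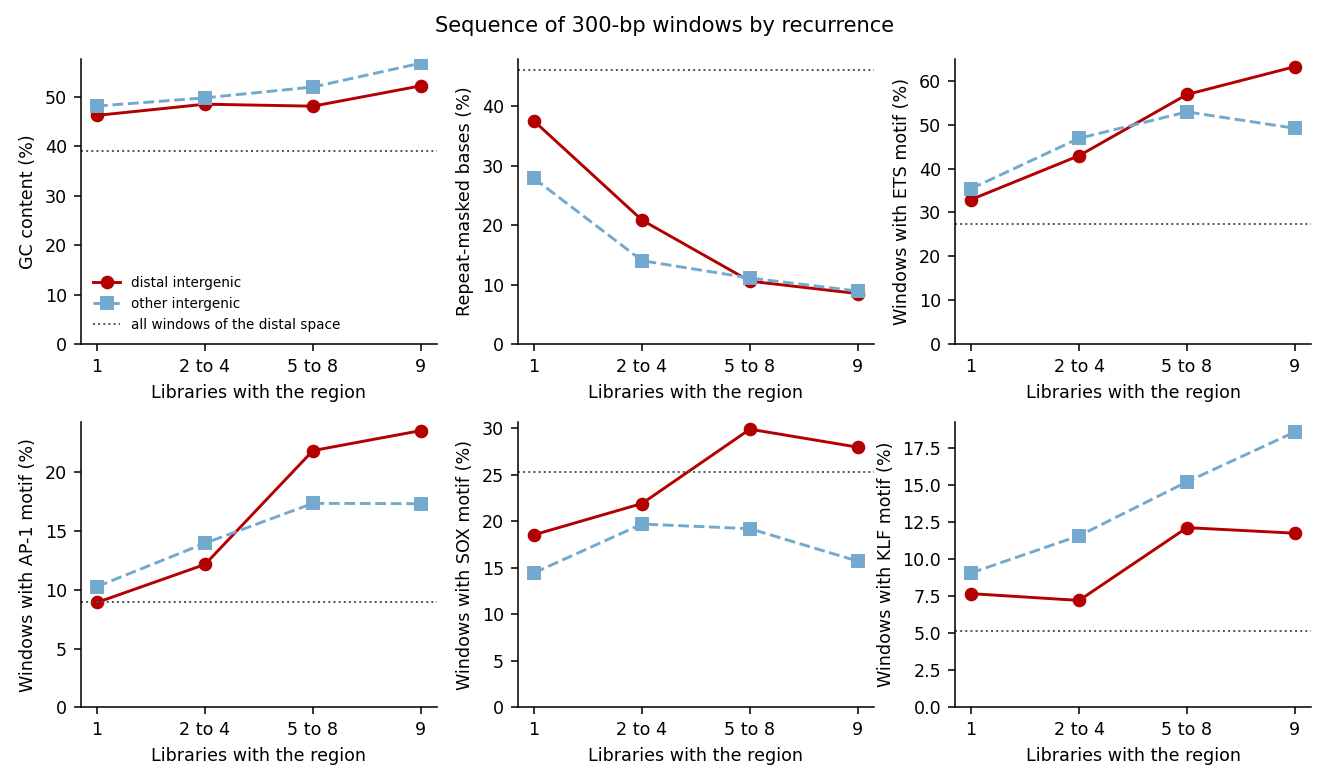
GC content, repeat-masked bases and the share of 300-bp windows with 4 motifs, by the number of libraries that held the region, for distal intergenic (circles) and other intergenic regions (squares), with all tiled windows of the distal space as a dotted line. In the distal regions masked bases fall from 37.5% to 8.5% and the ETS share rises from 32.9% to 63.2% from 1 library to 9.

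Within each library the distal peaks as a whole were poorer in most motifs than the other intergenic peaks. Averaged over the 9 libraries, the KLF share was 9.15% against 14.0% (difference -4.83 ± 1.32 percentage points, SD, adjusted p = 0.00488, exact sign-flip permutation) and the CTCF share 1.06% against 3.10% (adjusted p = 0.00488, exact permutation). GC content was lower in all 9 libraries, with a mean difference of -4.17 ± 1.31 percentage points (SD, adjusted p = 0.00488, exact permutation). SOX alone was more frequent in distal peaks in every library, at 22.2% against 17.2% (adjusted p = 0.00488, exact permutation). FOX differed by -0.75 percentage points with the lower share in 6 of 9 libraries (adjusted p = 0.0312, exact permutation), which passed, but not among the strongest peaks (unadjusted p = 0.168, exact permutation).

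ETS and AP-1 turned with strength. Over whole lists, ETS was less frequent in distal peaks, at 41.6% against 46.4% (difference -4.74 ± 3.03 percentage points, SD, adjusted p = 0.00488, exact permutation), and AP-1 at 13.3% against 15.1%, lower in 8 of 9 libraries (adjusted p = 0.0130, exact permutation). Among the 6157 strongest peaks of each library, distal peaks held more of both, by 9.15 percentage points for ETS (unadjusted p = 0.00781, exact permutation) and 6.91 for AP-1 (unadjusted p = 0.00391, exact permutation). The same crossing stood in the recurrence classes, where distal regions of all 9 libraries exceeded the other intergenic ones for ETS, at 63.2% against 49.2%, and for AP-1, at 23.5% against 17.3%.

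By percent place, the 68 distal regions of all 9 libraries stood in the middle of the young WT Cre lists and nearer the top of the others. Their median place was 49.2% and 32.8% in young WT Cre, 13.8%, 14.4% and 14.4% in young EC-K4KO, 6.23% and 8.47% in old WT Cre, and 6.08% and 7.56% in old EC-K4KO. Counted in peaks, their median rank was 3030 and 3148 in young WT Cre and 3282.5, 3642 and 4032 in young EC-K4KO. It was 2734 and 2759.5 in old WT Cre, and 2737.5 and 2957 in old EC-K4KO. The percent place of these regions thus moved with list length, which was shortest in young WT Cre. Their median fold was 4.77 and 5.11 in young WT Cre, 5.13, 8.23 and 8.33 in young EC-K4KO, 8.20 and 8.62 in old WT Cre, and 9.94 and 9.64 in old EC-K4KO. Values were lowest in young WT Cre and highest in old EC-K4KO, and the EC-K4KO values lay above the WT Cre values of the same age without overlap. The median fold of promoter peaks was 5.17 and 5.08 in young WT Cre, 4.41, 7.13 and 7.16 in young EC-K4KO, 6.74 and 7.45 in old WT Cre, and 8.45 and 8.55 in old EC-K4KO. It too was highest in old EC-K4KO, but it was lowest in young EC-K4KO 1, below both young WT Cre libraries. The median peak width in the 68 regions was 624.5 bp, against 244 bp in regions of a single library. These regions also lay nearer to genes, with a median listed distance of 146 kb against 271 kb. Of the 68, 12 (17.6%) lay within 1 kb of a GENCODE TSS and 7 (10.3%) within 1 kb of a curated RefSeq TSS, compared with 3.62% and 0.179% of the single finds.

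The region with the best mean place lay 118.9 kb upstream of Klf4, the gene deleted in EC-K4KO, at chr4:55650939-55651769 (118890 bp from its TSS). It was the strongest distal peak of young WT Cre 2 and of all 3 young EC-K4KO libraries. Its fold was 8.40 and 9.05 in young WT Cre, 9.62, 11.5 and 10.9 in young EC-K4KO, 8.42 and 8.86 in old WT Cre, and 11.2 and 9.66 in old EC-K4KO. The region was thus open in both genotypes, with the EC-K4KO values above the WT Cre values of the same age and without overlap. The median fold of promoter peaks was higher in EC-K4KO too by group mean, at 5.12 and 6.23 in young and 7.09 and 8.5 in old mice for WT Cre and EC-K4KO. In young mice the libraries overlapped, since young EC-K4KO 1, at 4.41, lay below both young WT Cre libraries. The part of the promoter fold in the difference at the Klf4 region was not tested. The Klf4 region stood between rank 50 and rank 606 in the lists, and its window had a GC content of 65.7%.

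The next region lay 146153 bp downstream of Arhgap12, which encodes a GTPase-activating protein, with a fold from 8.62 in young WT Cre 1 to 15.4 in old EC-K4KO 2. The third lay 116689 bp from Arl4a, an ARF-like small GTPase gene, at chr12:39920407-39920995 in the body of the noncoding RNA Gm47868. Its fold was 10.1 and 7.97 in young WT Cre, 9.92, 15.02 and 14.2 in young EC-K4KO, 13.1 and 13.2 in old WT Cre, and 15.8 and 14.2 in old EC-K4KO. It was the strongest distal peak in young WT Cre 1, old WT Cre 1 and both old EC-K4KO libraries, and its values overlapped between young EC-K4KO and the old groups.

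Some of the strongest regions lay at the starts of transcripts outside the authors' gene table. The N6amt1 region, chr16:87127993-87128909 and listed 225743 bp upstream of this methyltransferase subunit gene, was centred 3 bp from the TSS of the noncoding Gm32865. The region listed 162511 bp from Akr1e1, an aldo-keto reductase gene, lay 23 bp from the TSS of the noncoding Gm5444 and in its exon. The region listed 137744 bp upstream of Fbxw7, a substrate receptor of the SCF ubiquitin ligase, lay 801 bp from an upstream GENCODE TSS of Fbxw7 itself and had a GC content of 69.7%. That listed 204136 bp from 4930441H08Rik lay 518 bp from the TSS of Gm44688 at a GC content of 70.7%. These 4 of the 12 are distal by the deposited annotation and promoter-proximal by GENCODE.

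The other 5 lay farther from every GENCODE TSS than 2 kb. Cwc27, a spliceosomal cyclophilin gene, had a region 206184 bp away with a fold of 6.08 to 11.5. Myt1l, a neuronal zinc finger gene, had one 237223 bp upstream with folds of 7.36 and 6.61 in young WT Cre, 7.43, 12.6 and 12 in young EC-K4KO, 12.6 and 13.2 in old WT Cre, and 16.0 and 14.9 in old EC-K4KO. Dusp6, which encodes an ERK phosphatase, had one 146626 bp away at chr10:99409535-99410160 with folds from 6.31 in young WT Cre 1 to 12 in old EC-K4KO 1. Each was weakest in a young WT Cre library and strongest in an old EC-K4KO library, as was the median fold of the 68 regions. Irf2bp2, a transcriptional corepressor gene, and Fat4, a giant cadherin gene, completed the set with maximum folds of 8.42 and 9.37.

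**Figure D4:**
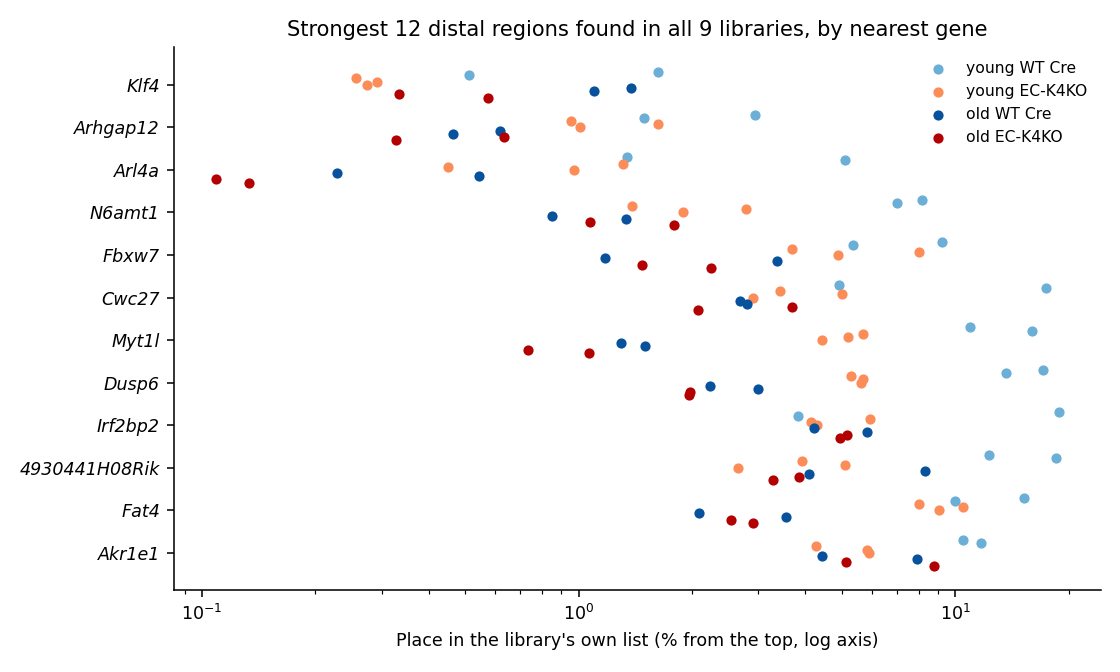
Place of the 12 strongest all-library distal regions in each library's own list, in percent from the top on a log axis, 1 point per library, coloured by group and labelled by nearest gene. The Klf4 region lies between 0.256% and 1.62% in all 9 libraries, and the young WT Cre points lie farthest right in most rows, up to 18.8% at Irf2bp2. Percent place depends on list length, which is shortest in young WT Cre.

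The space upstream of Klf4 held 11 distal regions found in 2 or more libraries, from 118.9 to 581.3 kb from the TSS. With peaks of a single library included, the peaks there numbered 2 and 3 in young WT Cre, 9, 6 and 5 in young EC-K4KO, 13 and 8 in old WT Cre, and 14 and 12 in old EC-K4KO. Young WT Cre had fewer than each other group without overlap, as in the whole lists. The 2 end regions were open in all 9 libraries. The far one, chr4:56113146-56114221, had folds of 4.26 and 4.87 in young WT Cre, 4.30, 6.20 and 5.89 in young EC-K4KO, 6.87 and 7.0 in old WT Cre, and 7.44 and 7.68 in old EC-K4KO. Old libraries lay above young ones in both genotypes there, as they did in the median fold of the 68 regions of all libraries.

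Between them the regions differed in recurrence. The region 140 kb upstream was found in all libraries but young WT Cre 1. Those at 157.2 and 201 kb were found in the 7 libraries outside young WT Cre. At 157.2 kb the fold was 3.18, 4.38 and 3.59 in young EC-K4KO, 3.67 and 4.51 in old WT Cre, and 9.58 and 7.34 in old EC-K4KO, so old EC-K4KO stood above the rest. The median fold of promoter peaks was highest in old EC-K4KO too. The regions at 129.7 and 138.0 kb were found in the 4 old libraries only. Those at 388.5 and 538.4 kb were found in the 2 old EC-K4KO libraries alone, at places no better than 63.7%. None of the 11 regions overlapped a GENCODE gene body at its centre.

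**Figure D5:**
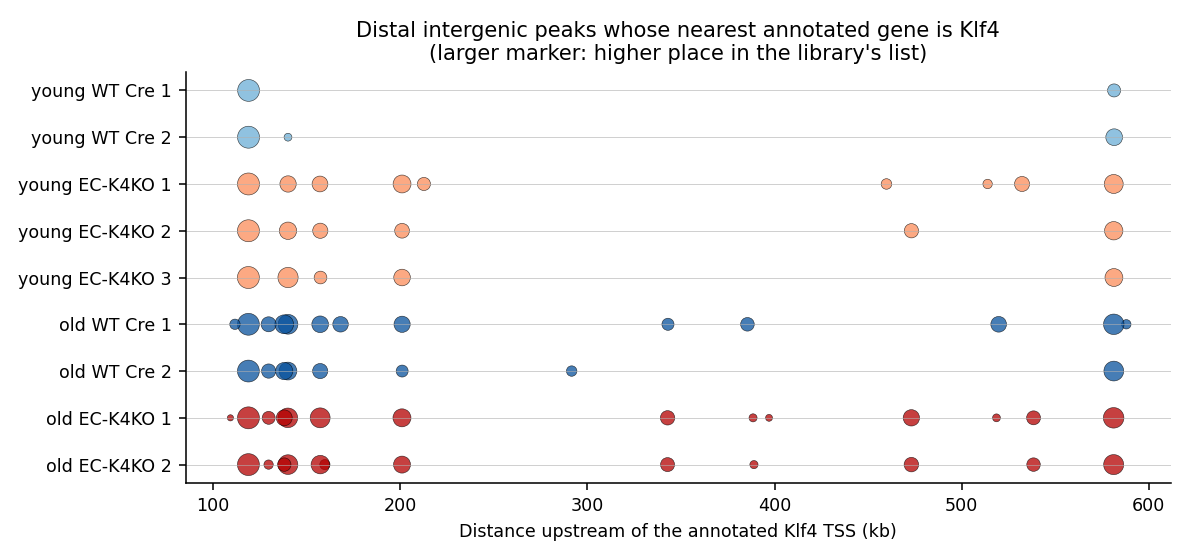
Distal intergenic peaks whose nearest annotated gene was Klf4, by distance upstream of its TSS in kb, 1 row per library, coloured by group, with larger markers for peaks placed higher in the library's list. Markers at 118.9 and 581.3 kb appear in all 9 rows, and the young WT Cre rows hold 2 and 3 peaks.

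Regions gained over young WT Cre were counted where a group had a peak in at least 2 libraries and young WT Cre in none. Among the 17079 distal regions, 521 (3.05%) were gained in young EC-K4KO, against 10.2% of merged regions of all classes. Old WT Cre gained 961 (5.63%), against 17.4%, and old EC-K4KO gained 1459 (8.54%), against 26.6%. Each share lay below that of all classes. A gained region needs a peak in 2 libraries, so a region of a single library could not be called. Such regions made up 84.9% of the distal regions and 57.3% of merged regions of all classes. The lower shares are therefore no result about the recurrent distal regions. The 3 comparisons share the young WT Cre libraries. With lists of equal length the gained distal regions numbered 9 of 369 (2.44%), 22 (5.96%) and 32 (8.67%), against 6.99%, 7.3% and 8.3% of merged regions of all classes, so the count in old EC-K4KO was near the background.

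No distal region was lost, but few could have been. A loss needs a peak in both young WT Cre libraries, which had the shortest lists. Of their 221 and 550 distal peaks, 31.2% and 12.5% met a peak of the other library, and 68 distal regions were in all 9 libraries. A region of both young WT Cre libraries that was absent from every library of a group was found 0 times among the distal regions for each of the 3 groups, and 1, 1 and 4 times among all merged regions. Regions in all 5 EC-K4KO libraries and in no WT Cre library numbered 1 among the distal regions and 18 among all. Regions in all 4 old libraries and in no young one numbered 276 (1.62%), against 3.81% of all merged regions. These shares, too, were taken over all regions, with those of a single library included.

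The strongest gained regions were shared by most groups other than young WT Cre. In young EC-K4KO they lay 101617 bp upstream of Med13l, a Mediator subunit gene, 138246 bp upstream of Trim24, a nuclear receptor coregulator gene, and 143289 bp from Plk2, a polo-like kinase gene. The Trim24 region had folds of 4.08, 8.06 and 7.84 in young EC-K4KO, 9.04 and 7.82 in old WT Cre, and 10.7 and 10.2 in old EC-K4KO. It was weakest in young EC-K4KO 1, as were the Med13l and Plk2 regions. In old WT Cre they lay near Tbl1xr1, a corepressor complex gene (545588 bp upstream), Fendrr, a noncoding RNA gene (105738 bp), and Cxcl12, a chemokine gene (265767 bp). In old EC-K4KO they lay near Tcf21, a bHLH factor gene (261111 bp upstream), Spata18 (101135 bp) and Cdkn2b, a CDK inhibitor gene (159005 bp upstream).

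Each of these 9 regions was present in 6 or 7 libraries. Each was chosen for its absence from young WT Cre and its places in the group that gained it. A high fold in that group is therefore part of the choice and no result. The Tbl1xr1 region had folds of 7.30 and 5.95 in the young EC-K4KO libraries that held it, 9.30 and 11.9 in old WT Cre, and 9.89 and 12.1 in old EC-K4KO. Its old values lay above its young ones without overlap, but it was chosen for its places in old WT Cre. The Cdkn2b region had folds of 4.84, 7.87 and 7.38 in young EC-K4KO, 8.47 and 7.06 in old WT Cre, and 13.2 and 9.96 in old EC-K4KO. Its fold was highest in old EC-K4KO, as was the median fold of promoter peaks, but this was the group it was chosen in.

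The 2587 distal regions found in 2 or more libraries lay nearest to 1185 genes, 626 of them with a single region. The most regions, 23, were nearest to Zfp608, a zinc finger gene, with 9 of them in 5 or more libraries and none in all 9. Tbl1xr1 followed with 16, Foxo1, a forkhead factor gene that restrains endothelial growth, with 14, and Ly86, which encodes the RP105 partner MD-1, with 13. The Foxo1 regions lay between 101.9 and 234.4 kb on one side of the gene, and 11 of the 14 were found in 5 or more libraries. Klf4, Tgfbr2, the type II TGF-beta receptor gene, Rybp, a Polycomb component gene, and Sipa1l2 had 11 each. Cdkn2b, Fam43a, Tns3, a tensin gene, 1700030F04Rik and Map3k7, the TAK1 kinase gene, had 10 each, and 9530026P05Rik had 12 and 1810013L24Rik 9.

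Counted over all distal regions, single finds included, other genes led, with 60 at Gm20268, 52 at Cdh9, 51 at 5730507C01Rik and 48 each at Ncam2 and Cntnap5a, a count taken after the values were seen. Cdh9, Ncam2, Cntnap5a and Pcdh9 (45 regions) encode adhesion molecules expressed in neurons. Of these 4 only Cdh9, with 8, had more than 2 regions found in 2 or more libraries. The list of 82 adhesion and axon guidance genes was nearest to 6.49% of the single finds and to 2.86% of the recurrent distal regions, and to 0.236% of recurrent other intergenic regions. Adgrl2, a latrophilin gene, had 8 recurrent regions, and Sema6d, a semaphorin gene, had 1 in all 9 libraries.

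Of 50 endothelial and barrier genes, 13 were nearest to a recurrent distal region, with 60 regions in all (2.32%, against 0.738% of the single finds and 2.02% of recurrent other intergenic regions). Klf4 had 11 of them and Adgrl4, an endothelial adhesion receptor gene, 8, with a best mean place of 10.05% from the top. Kdr, the VEGF receptor 2 gene, Emcn, the endomucin gene, and Lef1, a Wnt effector gene, had 5 each. Cdh5, Efnb2 and Sox17 had 4 each, and Hey1, a Notch target gene, and Klf6 had 3. The Kdr regions lay between 100.4 and 163.9 kb from its TSS.

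Lists of 15 genes each stood for other brain cells. No recurrent distal region was nearest to a gene of the mural or oligodendrocyte list, 3 were nearest to genes of the microglial list (Sall1 and Siglech), 3 to genes of the neuronal list (Syt1 and Rbfox1) and 11 to astrocyte genes. As shares of recurrent regions these were 0.116% for the microglial list (0.00943% of recurrent other intergenic regions), 0.116% for the neuronal list (0.0943%) and 0.425% for the astrocyte list (0.141%). Of the 11, 9 lay near Gja1, the connexin 43 gene, which is also expressed outside astrocytes. The list of 70 developmental transcription factor genes was nearest to 48 recurrent distal regions (1.86%), against 0.537% of recurrent other intergenic regions and 2.19% of the single finds. Irx3 had 8 of them, 1 in all 9 libraries, Dach1 6, Klf12 5 and Gata3 4. These are counts, without a test, and the nearest gene need not be the one a region acts on.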

How the data were processed

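Omni-ATAC-seq libraries from sorted brain endothelial cells were mapped by the authors to mm10 (GRCm38) with Bowtie2, and peaks were called with MACS2 in broad mode, 1 list per library. The deposited lists give a peak score, a fold enrichment (a linear ratio over background), the -log10 p-value and the -log10 q-value, and the authors' HOMER annotation gives the nearest TSS and the same score. The lists hold no read counts. Here every peak was kept and classed by the deposited annotation and distance. Peaks were ranked within a library by -log10 p, joined across libraries at 1 bp of overlap, and scanned for motifs in 300-bp windows of the GRCm38 reference (RefSeq). TSSs came from GENCODE M21 and curated RefSeq. The regions named are the 12 of all 9 libraries with the best mean place, the 3 strongest gained per group (none was lost), the farthest and the widest, and the 15 genes nearest to most recurrent regions.

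Groups were compared with two-sided exact permutation tests over libraries within strata, and distal with other intergenic peaks with exact sign-flip tests over 9 libraries, with Benjamini-Hochberg adjustment over 10 tests each and over 5 for interactions. All p-values come from Python 3.11.15 with numpy 2.4.6 and pandas 2.3.3, tested on simulated data. Alternatives were other distance limits, thresholds, rankings, TSS sets, list lengths, windows and left-out libraries. Members and gene lists were chosen with earlier results of these data known.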

Additional observations from a re-analysis of the deposited data

Results flagged for a closer look

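The genotype difference in the distal share of the deposited list ran in opposite directions by age. It was 6.57 percentage points in young and -4.16 in old mice, an interaction of -10.7 percentage points (unadjusted p = 0.0333, adjusted p = 0.0833 over 5 interactions, exact permutation), which did not pass after adjustment. Among the 6157 strongest peaks the difference was -1.52 percentage points in young and 0.15 in old mice, an interaction of 1.66 percentage points (unadjusted p = 0.0333, adjusted p = 0.0833, exact permutation), in the other direction. The old value of the first rests on old WT Cre 1 (15%) against old WT Cre 2 (7.47%), and list length moved with both; their part was not tested.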

How the results depend on the processing

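Of the recomputed values, 293 kept their direction and side of the threshold, or stayed within 1.5 times. For genotype, the number of distal peaks passed the unadjusted threshold at q under 0.01 (1.32 on the log2 scale), as did median width with equal-length lists (128 bp) and at q under 0.01 (44.2 bp), while the median place turned to 0.47 percentage points with a limit of 200 kb. For age, the number passed with a limit of 50 kb (1.83), at q under 0.05 (2.13) and at q under 0.01 (2.62), the share of the list passed at q under 0.01 (2.29 percentage points) and turned as a share of intergenic peaks (-1.82), and the share of equal-length lists turned with 1000 peaks (0.12), 3000 peaks (0.25, passing in the opposite direction at p = 0.0167, exact permutation) and ranking by fold (0.17). Width passed with equal-length lists (191 bp) and with a limit of 50 kb (47.9 bp), and place passed at q under 0.01 (-7.82) and turned with a limit of 200 kb (2.37). Against other intergenic peaks, equal-length lists ended the calls for width (-3.06 bp), recurrence (-5.93) and FOX (-0.54) and turned ETS (9.15) and AP-1 (6.91). The 68 regions of all 9 libraries became 19 at 200 kb and 42 with equal-length lists. Gained regions became 200, 347 and 505 at 200 kb and 9, 22 and 32 with equal-length lists in the order used above (young EC-K4KO first, old EC-K4KO last), and 314 in young EC-K4KO at q under 0.01. Without young EC-K4KO 1 and old WT Cre 1, old WT Cre gained 2230, since its lone library then sufficed. That setting, q under 0.01 for regions, curated RefSeq TSSs and the removal of regions near GENCODE TSSs were chosen after seeing the data. Leaving out 1 library at a time gave ranges of 0.94 to 1.66 for the genotype difference in number (passing without old WT Cre 1), -0.67 to 3.08 for that in share (negative without old WT Cre 2), -0.68 to 3.06 for the age difference in share (negative without old WT Cre 1), -0.65 to 0.13 in equal-length share (positive without young WT Cre 1), 32.9 to 50.5 bp in width (passing without old EC-K4KO 1) and -0.89 to -0.57 for FOX, whose call ended without 6 of the 9 libraries. The regions of all libraries ran from 68 to 145 (without young WT Cre 1), and gained regions from 196 to 618 in young EC-K4KO (196 without replicate 2 and 211 without replicate 3), 960 to 6342 in old WT Cre and 1459 to 3216 in old EC-K4KO. The labels did not say that library numbers marked pairs. Over the 68 regions, same-numbered libraries of different groups had correlations of deviations from -0.21 to 0.18, with 5 of 12 above 0.1. In a group of 2 libraries the deviations mirror each other, so some of these correlations repeat by construction. They cannot settle whether the numbers mark pairs. With the replicate block over 4 pairs the genotype difference in number was 1.29 (p = 0.375, exact permutation) and the age difference 1.79 (p = 0.13, exact permutation, the smallest 4 pairs can give), so that the block could give no call in the 10 comparisons between groups for which it was run. The depth behind each peak was unknown, so a missing peak cannot be told from shallow sequencing.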

Other observations

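Distal intergenic regions were scarce on the X chromosome. They numbered 83 there and 16994 on the autosomes, or 0.485 against 6.90 per Mb of chromosome, a ratio of 14.2. The ratio was 5.99 for other intergenic regions, 2.18 for promoter regions and 6.0 for all regions. Over regions found in 2 or more libraries it was 4.21 for distal, 3.54 for other intergenic and 3.41 for all regions. Of the 83 regions, 42 recurred. The X chromosome held 56.7 Mb of reference sequence that met the distance rule. By library the distal peaks on the X numbered 0 and 3 in young WT Cre, 4, 20 and 30 in young EC-K4KO, 38 and 27 in old WT Cre, and 45 and 39 in old EC-K4KO. The labels used here do not give the sex of the mice, and the cause was not tested.

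Recurrent distal regions were spread unevenly over the autosomes. They ranged from 2.77 per Mb of distal sequence on chromosome 19 to 6.06 on chromosome 13 and 6.25 on chromosome 18, while single finds ranged from 19.6 on chromosome 14 to 26.4 on chromosome 7. The widest merged region, 2709 bp and listed 141127 bp from 1700108F19Rik, was present in all but the young WT Cre libraries, with a fold from 2.60 in young EC-K4KO 1 to 9.51 in old EC-K4KO 2.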
